A study of Homo sapiens with 36 samples.

Results

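Chromatin access at 8 genes of the transforming growth factor beta (TGF-beta) pathway was examined in BT549, a mesenchymal triple-negative breast cancer cell line. The genes encode the ligands TGFB1 and TGFB2, the activin subunit INHBA, the receptors TGFBR1 and TGFBR2, the co-receptor TGFBR3, the signal transducer SMAD3 and the inhibitor SMAD7. ATAC-seq reads out access through a transposase that cuts open chromatin and tags the cuts for sequencing. Peaks from all 36 libraries were merged into regions. A region belonged to a gene when the centre of at least 1 of its peaks lay in the gene or within 50 kb of either end. By this rule 295 regions of 259704 belonged to the 8 genes. A library is said to hold a region when 1 of its own peaks lies there.

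The libraries form 10 groups in 3 experiments, all in BT549 cells that the labels give as wild type. In the first, pooled siRNA was either a control (siCtl) or directed at GATA6, a transcription factor (siGATA6, 72 h of knockdown). Vehicle (Veh) or 500 nM dexamethasone (DEX, an agonist of the glucocorticoid receptor, in water) followed for 2 h. These 4 groups, siCtl_Veh, siCtl_DEX, siGATA6_Veh and siGATA6_DEX, hold 3 libraries each. In the second, no siRNA was given, and cells were kept for 4 h in DMSO or in 10 µM BRM014, which blocks BRG1 and BRM, the ATPases of SWI/SNF complexes. DEX at 500 nM was present for 4 h or left out. These groups, DMSO, BRM014, DEX_DMSO and DEX_BRM014, hold 4 libraries each. In the third, siRNA against both ATPases (siBRG1_siBRM) was set against control siRNA (siCtl_only) in 4 libraries each, for a time the labels do not give. The knockdowns could not be checked here, since the files hold no RNA or protein values.

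TGF-beta and activin ligands bind type II receptors such as TGFBR2, which activate type I receptors such as TGFBR1. These phosphorylate SMAD2 and SMAD3, which enter the nucleus with SMAD4 and act on genes that include SMAD7, whose product inhibits the pathway. TGFBR3, also called betaglycan, presents TGFB2 to the signalling receptors, and the pathway is known for its part in invasion and mesenchymal traits of breast cancer cells. SWI/SNF complexes use the energy of ATP to move nucleosomes and keep enhancers open, and the glucocorticoid receptor binds many such enhancers.

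The start sites of SMAD3 and TGFBR3 include regions held by all 36 libraries and 1 lost with the ATPases, and their sequences are given for that reason. That loss was an exception: of the 29 regions of the 8 genes lost in either BRM014 comparison, 1 lay over a start-site window. The first SMAD3 window lay under a region held by all 36 libraries. The second, at a start site within the gene, lay under a region that every library with untreated ATPases held and that none of the 12 libraries with inhibited or depleted ATPases held. The third SMAD3 window lay under a region held by 34 libraries, and the TGFBR3 window under 1 held by all 36. The 2 SMAD3 windows farther along the gene, at chr15:67137771-67138070 and chr15:67166281-67166580, lay under no region. Each window runs from 250 bases before to 50 after a RefSeq start site (GRCh38.p14), and capitals mark the letters GGGCGG (the GC box) and TGANTCA (the AP-1 site) on either strand.
SMAD3 start at the 5′ end, chr15:67065352-67065651, plus strand: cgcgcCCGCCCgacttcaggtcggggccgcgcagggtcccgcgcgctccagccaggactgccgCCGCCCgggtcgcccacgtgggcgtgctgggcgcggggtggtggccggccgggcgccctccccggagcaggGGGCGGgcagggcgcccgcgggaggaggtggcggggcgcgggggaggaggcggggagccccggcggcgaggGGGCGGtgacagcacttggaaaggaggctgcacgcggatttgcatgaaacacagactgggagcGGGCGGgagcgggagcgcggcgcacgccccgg
SMAD3 start within the gene, lost with the ATPases, chr15:67098429-67098728, plus strand: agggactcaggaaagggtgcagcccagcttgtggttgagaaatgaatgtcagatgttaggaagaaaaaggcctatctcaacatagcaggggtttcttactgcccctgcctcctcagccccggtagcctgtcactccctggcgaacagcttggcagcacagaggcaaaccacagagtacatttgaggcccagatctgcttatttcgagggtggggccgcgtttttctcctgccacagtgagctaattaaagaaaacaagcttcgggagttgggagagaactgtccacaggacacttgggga
SMAD3 other start within the gene, chr15:67125492-67125791, plus strand: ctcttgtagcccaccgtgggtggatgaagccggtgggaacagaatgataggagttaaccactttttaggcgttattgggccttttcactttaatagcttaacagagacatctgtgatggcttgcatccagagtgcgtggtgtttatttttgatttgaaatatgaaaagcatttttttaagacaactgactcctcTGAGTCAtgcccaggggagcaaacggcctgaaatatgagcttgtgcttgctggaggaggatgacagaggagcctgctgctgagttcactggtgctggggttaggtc
TGFBR3 start, chr1:91886102-91886401, minus strand: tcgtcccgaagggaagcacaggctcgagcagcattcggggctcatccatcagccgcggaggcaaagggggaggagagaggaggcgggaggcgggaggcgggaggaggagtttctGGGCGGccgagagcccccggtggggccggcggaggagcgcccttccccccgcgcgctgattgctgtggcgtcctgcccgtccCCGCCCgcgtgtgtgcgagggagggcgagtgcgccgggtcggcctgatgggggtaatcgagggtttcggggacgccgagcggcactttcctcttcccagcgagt
The first SMAD3 window held 5 GC boxes and had a GC content of 80.3%, against a mean of 57.6% over all 34961 windows. The second SMAD3 window, with a GC content of 52.7%, held none of the motifs searched, and the third held 1 AP-1 site. The TGFBR3 window held 2 GC boxes. The GC box occurs in 45.0% and the AP-1 site in 7.68% of all windows. The other motifs searched were CAGACAG (6.11% of windows) and GTCTAGAC (0.197%), which bind SMADs and can overlap in part. The TEAD motif GGAATG occurs in 14.0%, the GATA motif AGATAA in 10.3% and the palindromic glucocorticoid response element in 0.00286% of windows. None of these others was found in the 4 windows shown.

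The peak lists held 37184 to 131423 peaks, and their number moved with the ATPases. Groups with BRM014 had a mean of 53586 (BRM014) and 55519 (DEX_BRM014) peaks, against 94069 (DMSO) and 98808 (DEX_DMSO). The group siBRG1_siBRM had 50934 against 85769 in siCtl_only, and the 4 groups of the GATA6 experiment had 118310 to 124564. The depth in reads is unknown, and a region open in fewer cells and one less open in each cell cannot be told apart in bulk libraries. Peaks lay at gene ends of the mesenchymal genes VIM, CD44 and AXL in all 36 libraries and of ZEB1 in 35, and none lay at ESR1, PGR or the endothelial genes PECAM1 and CDH5. The luminal genes FOXA1 and CDH1 had peaks in 36 and 26 libraries, and the leukocyte genes PTPRC and CD3E in 30 and 16.

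The 8 genes differed widely in how many regions they held. TGFBR3 (gene ID 7049, chr1:91680343-91906002, minus strand) had 85 regions, 72 of them inside the gene. SMAD3 (4088, chr15:67065602-67195169, plus) had 43, SMAD7 (4092, chr18:48919853-48950965, minus) 33 and TGFBR2 (7048, chr3:30606356-30694142, plus) 32. TGFB1 (7040, chr19:41330323-41353922, minus) and TGFB2 (7042, chr1:218345336-218444619, plus) had 30 each. TGFBR1 (7046, chr9:99103647-99154192, plus) had 26 and INHBA (3624, chr7:41685114-41705406, minus) 16. TGFBR3 is also the longest of the 8 genes at 225660 bp, so these counts are not levels. Numbers of regions held were tested only within a gene. Where numbers of called regions are ranked among genes below, the ranks are not adjusted for how many regions a gene has. Exons, introns and UTRs were not assigned, because only gene ends and start sites were used.

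Of the 295 regions, 22 (7.46%) were held by all 36 libraries and 92 (31.2%) by a single library. Over all regions the shares were 9.23% and 33.6%. A promoter window lay under 7 of the 22 (31.8%, against 37.0% of all regions held by 36 libraries).

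Among the ligands, the TGFB1 region with the highest mean fold of the 3 held by all 36 libraries lay upstream at chr19:41363771-41364428, over the start sites of the neighbouring genes B9D2 and TMEM91, with a mean fold of 29.0. Fold here is the authors' enrichment at the summit of a peak relative to its own library's background. The window at the start site of TGFB1 itself held 7 GC boxes and its region was held by 35 libraries. The region at the start of TGFB2 was held by 31 libraries, and 2 of 4 libraries held it in BRM014 and in DEX_BRM014. The most shared TGFB2 region with the highest mean fold, 20.4, lay downstream at chr1:218459964-218460890. At INHBA the region at the 5′ end of the gene, chr7:41705128-41705809, was held by all 36 libraries with a mean fold of 25.5, while the RefSeq start-site window of INHBA lay under a region held by only 2.

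Among the receptors, all 36 libraries held the start-site regions of TGFBR1 (chr9:99104582-99105189, mean fold 20.0), TGFBR2 (chr3:30606238-30606765, mean fold 23.9) and TGFBR3 (chr1:91885828-91886453, mean fold 16.9). For TGFBR3 a region inside the gene, chr1:91736243-91737529, had a higher mean fold of 21.6 in all 36 libraries. The first start-site region of SMAD3, chr15:67065029-67065966, was the only SMAD3 region held by all libraries and had a mean fold of 14.9. SMAD7 had 2 such regions. The first SMAD7 start-site window lay under no region, and the shared regions flanked it at chr18:48949898-48950154 and chr18:48952488-48952885, with mean folds of 5.79 and 10.1.

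**Figure D1:**
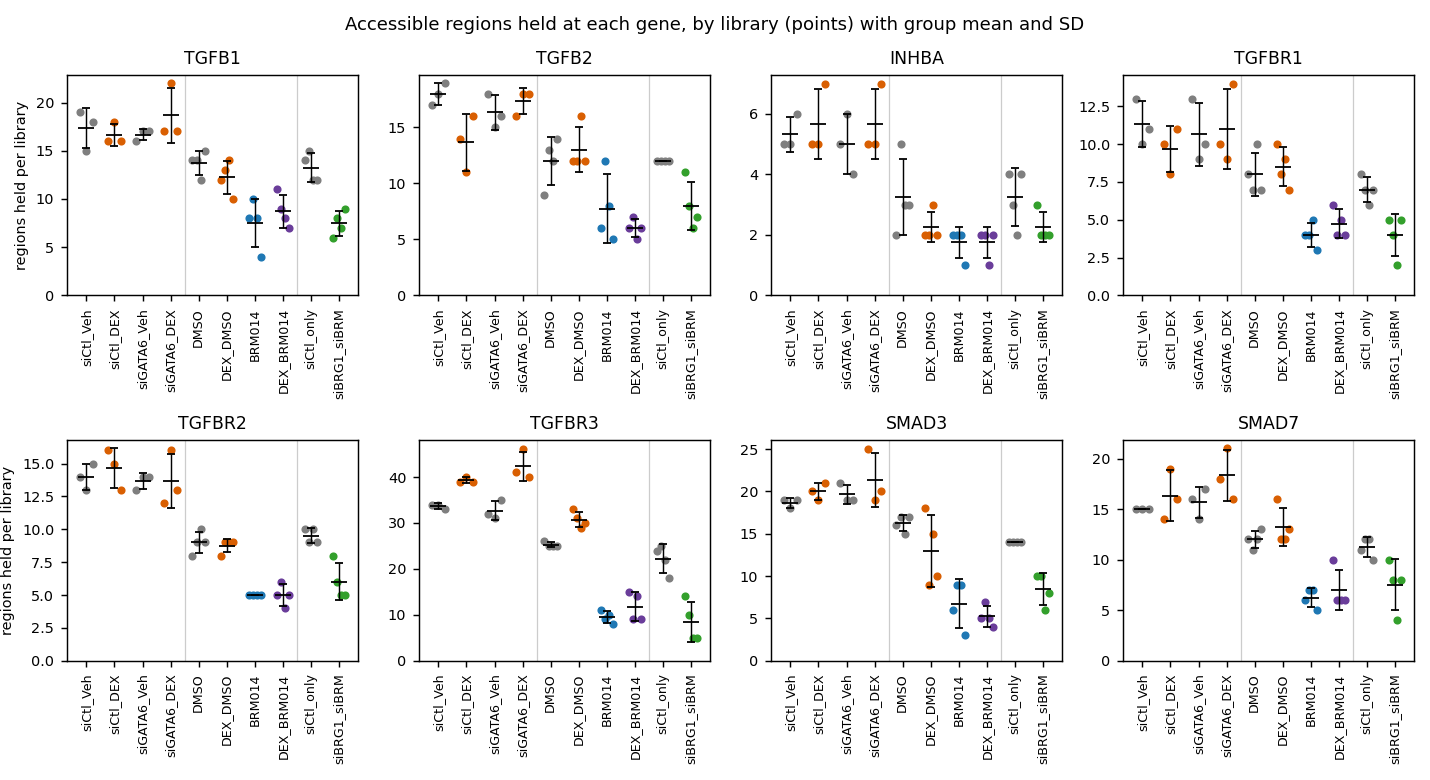
Number of regions held at each of the 8 genes (y axis, regions per library, from 0) in every library (points), by group (x axis), with the group mean and SD in black; vertical lines part the 3 experiments. TGFBR3 lies at 31 to 35 regions in vehicle and at 39 to 46 with DEX in the GATA6 experiment, and every gene has its lowest counts where the ATPases were inhibited or depleted.

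The first question was how activation of the glucocorticoid receptor for 2 h changed access at these genes. TGFBR3 stood out among them. In siCtl cells, 6 regions at TGFBR3 were gained, meaning that every DEX library and no vehicle library held them. In siGATA6 cells, 6 were gained as well. Of 19080 protein-coding genes, 36 (0.189%) gained at least as many in siCtl cells and 20 (0.105%) in siGATA6 cells. These ranks partly follow the number of regions per gene, and 57 and 59 regions were tested at TGFBR3.

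Over the 8 genes, 9 of 210 regions tested were gained with DEX in siCtl cells (4.29%, against 2.52% of all regions) and 3 were lost (1.43%, against 0.817%). In siGATA6 cells 9 of 222 were gained (4.05%, against 2.36%) and 2 were lost (0.901%, against 0.595%). TGFBR3 held 6 of the 9 gained regions in each, and TGFB1, TGFBR1, TGFBR2 and INHBA gained none in either. The 2 comparisons share no library. Of the 9 gained regions in each, 7 were the same (77.8% of either list), against 51.8% and 53.9% for all gained regions. Part of the calls rests on weak peaks: with only peaks of −log10 q of at least 5, 6 gained and 1 lost remained in siCtl cells and 5 and 2 in siGATA6 cells. The number called in siGATA6 cells was 20 without siGATA6_DEX replicate 1 and 17 without replicate 2, against 11 with all libraries.

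The 3 gained TGFBR3 regions with the highest mean fold were gained in both siRNA settings. The region at chr1:91801775-91802151, 84.2 kb downstream of the start site printed above, had folds of 10.1, 9.12 and 10.0 in the siCtl_DEX libraries and of 7.67, 10.1 and 8.53 in the siGATA6_DEX libraries. None of the 6 vehicle libraries held it. The region at chr1:91761303-91761912, 124.5 kb downstream of that start site, had folds of 6.89, 7.25 and 12.1 in siCtl_DEX and of 9.16, 6.83 and 10.6 in siGATA6_DEX, again with no vehicle library. The region at chr1:91673611-91673900 lay 6587 bp beyond the 3′ end of the gene, with folds of 4.69, 6.73 and 7.83 in siCtl_DEX and of 5.26, 5.96 and 10.1 in siGATA6_DEX. For the first of them, 38.2% to 51.3% of the peaks of the same DEX library had a higher −log10 q, and for the last 49.8% to 86.6%. With only peaks of −log10 q of at least 5, the second region was still gained in both settings, as was the first, while the last was held by 2 of 3 siCtl_DEX and 2 of 3 siGATA6_DEX libraries and was no longer called.

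**Figure D2:**
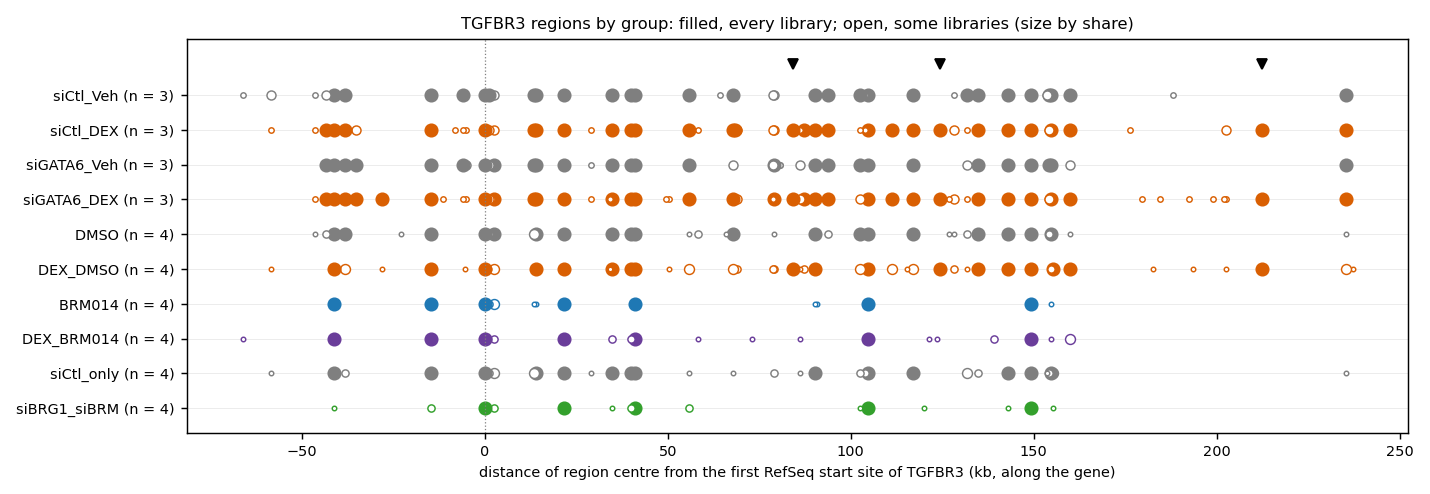
Regions of TGFBR3 by distance of their centre from the start site (x axis, kb along the gene) in the 10 groups (rows). Filled points are regions held by every library of the group, open points by some, sized by the share; black triangles mark the 3 regions gained with DEX in siCtl, siGATA6 and DMSO cells, at 84.2, 124.5 and 212.4 kb, which no library of the other 7 groups held.

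The number of regions that TGFBR3 held moved the same way. It was 34, 34 and 33 in siCtl_Veh and 39, 40 and 39 in siCtl_DEX. It was 32, 31 and 35 in siGATA6_Veh and 41, 46 and 40 in siGATA6_DEX. The DEX and vehicle libraries did not overlap, with 7.67 more regions with DEX (40.8 ± 2.64 against 33.2 ± 1.47, SD, n = 6 each). The exact permutation test within siRNA settings gave p = 0.005, the smallest that 400 arrangements allow, and an adjusted p of 0.194 over 51896 genes. No gene passed the adjusted threshold in either direction (0%), and 5791 had an unadjusted p under 0.05. The other 7 genes differed by −1.67 to 2.00 regions, with exact permutation p of 0.15 to 0.84.

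The remaining DEX calls lay at 4 genes. The TGFB2 region at chr1:218447095-218447537, 2697 bp beyond the 3′ end, was gained in both siRNA settings. Its folds were 10.1, 10.4 and 6.63 in siCtl_DEX and 7.88, 6.56 and 6.92 in siGATA6_DEX. The SMAD3 region at chr15:67185905-67186197, inside the gene, was also gained in both. At SMAD7 the region at chr18:48930080-48930293 was gained in siCtl cells and held by 2 of 3 siGATA6_DEX libraries. The losses lay at TGFBR2, the type II receptor, and TGFB2. The TGFBR2 region at chr3:30626475-30626614, inside the gene, was lost in both settings. Its folds were 3.63 to 4.74 in siCtl_Veh and 4.58 to 6.39 in siGATA6_Veh. The region at chr3:30578155-30578314, upstream, was lost in siCtl cells, while 2 of 3 siGATA6_Veh and no siGATA6_DEX libraries held it. Folds at TGFBR2 regions without a DEX call moved both ways, which was not tested. Upstream, at chr3:30597118-30597674, they were 5.51 to 8.05 in siCtl_Veh and 17.0 to 22.95 in siCtl_DEX. They were 8.19 to 13.3 in siGATA6_Veh and 17.7 to 18.9 in siGATA6_DEX. Inside the gene, at chr3:30693515-30693782, they were 17.7 to 19.8 in siCtl_Veh and 12.1 to 16.7 in siCtl_DEX. They were 24.2 to 29.9 in siGATA6_Veh and 16.9 to 17.7 in siGATA6_DEX. A TGFB2 region at chr1:218488166-218488390, downstream, was lost in siGATA6 cells and held by 2 siCtl_Veh and no siCtl_DEX libraries.

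Knockdown of GATA6 was associated with few calls at these genes. In vehicle, 1 region of 190 was gained (0.526%, against 0.459% of all regions) and 2 were lost (1.05%, against 0.806%). In DEX, 2 of 222 were gained (0.901%, against 0.677%) and 1 was lost (0.45%, against 0.71%). The TGFB1 region at chr19:41325936-41326220, downstream, was lost in vehicle, and the TGFBR3 region at chr1:91921339-91921552, upstream, was gained. In DEX, the TGFBR3 region at chr1:91914193-91914428 was gained and that at chr1:91817557-91817732 was lost. The number of regions per gene differed by −0.667 to 1.33 between siGATA6 and siCtl libraries (n = 6 each), with exact permutation p of 0.315 to 1.0. No gene passed the adjusted threshold (0% in either direction), 1805 genes had an unadjusted p under 0.05, and none of the 8 was among them. In vehicle the count of 3 calls was 6 without siCtl_Veh replicate 1 and 5 without replicate 3. In DEX the count of 3 was 6 without siCtl_DEX replicate 3 or siGATA6_DEX replicate 2 and 5 without siGATA6_DEX replicate 3.

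The remaining calls of both knockdown comparisons fell on 1 TGFB2 region, chr1:218339393-218339526, 5876 bp upstream of the gene. All 3 siCtl_Veh libraries held it, with folds of 4.44, 5.08 and 9.09, and no siCtl_DEX library did. No siGATA6_Veh library held it and all 3 siGATA6_DEX libraries did, with folds of 4.60, 5.37 and 4.40. So it was lost with DEX in siCtl cells and gained with DEX in siGATA6 cells. Opposite calls, in either order, were made for 12 of 203250 regions (0.0059%). At a −log10 q of at least 5, only 1 library of siCtl_Veh and 1 of siGATA6_DEX held it. Over the whole gene, TGFB2 held 17, 18 and 19 regions in siCtl_Veh, 14, 11 and 16 in siCtl_DEX, 18, 15 and 16 in siGATA6_Veh and 16, 18 and 18 in siGATA6_DEX. The DEX difference was 5.33 regions higher in siGATA6 than in siCtl cells (permutation p = 0.0160, adjusted p = 0.947). No gene of 51896 passed this interaction test (0%), and the adjusted p of the other 7 was 0.969 to 1.0.

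**Figure D3:**
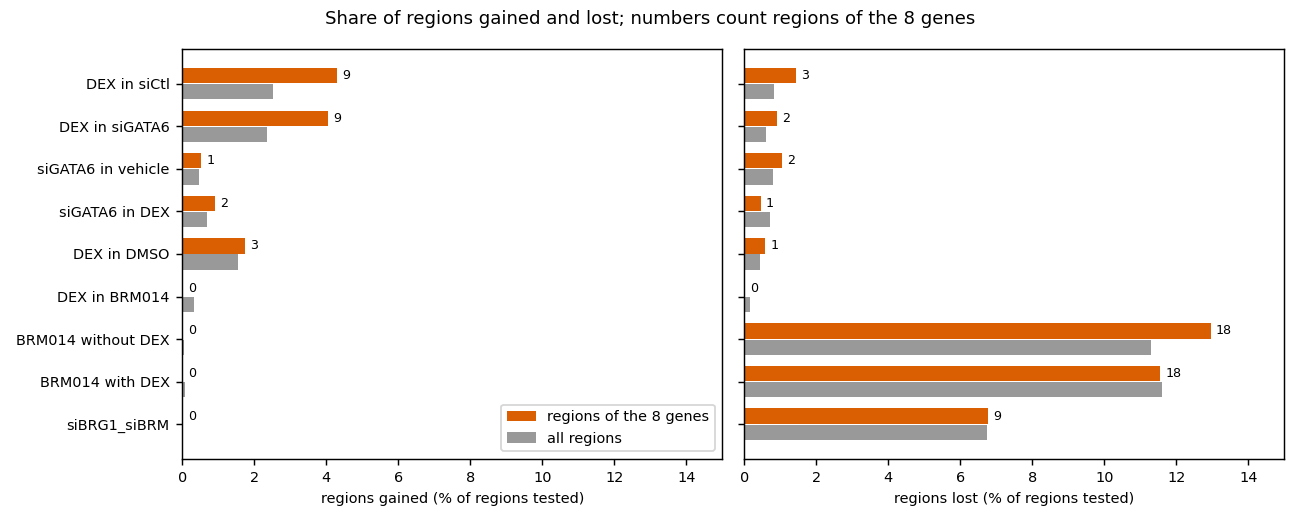
Share of regions gained (left) and lost (right) in each comparison, in percent of regions held by at least 1 of the libraries compared, for the 8 genes (orange, with the number of regions) and for all regions (grey). The 8 genes lie above all regions for gains with DEX in siCtl (4.29% against 2.52%) and siGATA6 cells (4.05% against 2.36%), where TGFBR3 held 6 of the 9 gained regions, and beside them for losses with BRM014 in DEX (11.5% against 11.6%) and with siBRG1_siBRM (6.77% against 6.73%).

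The second experiment asked what access at these genes owes to the SWI/SNF ATPases. With BRM014, all 8 genes held fewer regions. TGFBR3, the co-receptor, went from 26, 25, 25 and 25 regions in DMSO to 11, 9, 10 and 8 in BRM014, and from 33, 31, 29 and 30 in DEX_DMSO to 15, 9, 14 and 9 in DEX_BRM014. The treated and control libraries did not overlap, and the count fell by 17.4 regions (−62.1%; 10.6 ± 2.56 against 28.0 ± 3.16, SD, n = 8 each). The exact permutation test within DEX levels gave p = 0.000408, the smallest that 4900 arrangements allow, and an adjusted p of 0.00148 over 48100 genes. This change is widespread: 32615 genes (67.8%) fell and 35 (0.0728%) rose, and the median over all genes was −2.0 regions, or −34.0%.

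SMAD3 held 16, 17, 15 and 17 regions in DMSO, 18, 9, 15 and 10 in DEX_DMSO, 6, 9, 9 and 3 in BRM014 and 5, 7, 5 and 4 in DEX_BRM014. The lowest DEX_DMSO library thus met the highest BRM014 libraries, and the mean fell by 8.63 regions (−59.0%; exact permutation, adjusted p = 0.00148). SMAD7 fell by 6.0 (−47.5%), TGFBR1 by 3.88 (−47.0%) and TGFBR2 by 3.88 (−43.7%), each with the same adjusted p. TGFB2 fell by 5.63 (−45.0%; exact permutation, adjusted p = 0.00315) and TGFB1 by 4.88 (−37.5%; exact permutation, adjusted p = 0.00242). INHBA had the smallest difference, 1.75 ± 0.463 against 2.75 ± 1.04 regions (SD, n = 8 each; exact permutation, adjusted p = 0.0482). Its call was lost without BRM014 replicate 4 (exact permutation, adjusted p = 0.0602), DEX_DMSO replicate 3 (0.0782) or DEX_BRM014 replicate 3 (0.0798). The INHBA call was also lost when libraries were exchanged only within replicate numbers (exact permutation, adjusted p = 0.160).

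The number of peaks per list moved with BRM014, and this bears on the gene counts. When each list was held to its 41026 best peaks by q, the median over all genes was 0.125 regions, with 5231 genes lower and 6203 higher. Under that setting TGFBR3 (−4.25, exact permutation, adjusted p = 0.00501), SMAD3 (−4.00, 0.00501), SMAD7 (−2.13, 0.0210), TGFBR1 (−0.875, 0.0126) and TGFBR2 (−1.38, 0.0403) still fell. TGFB2 was higher by 1.38 regions (exact permutation, adjusted p = 0.0118). TGFB1 and INHBA differed by 1.88 and 0.25 regions (exact permutation, adjusted p = 0.0703 and 0.809). List length and treatment move together in these groups and cannot be told apart here.

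By region, 18 of 139 were lost with BRM014 without DEX (12.9%, against 11.3% of all regions) and none was gained (0.041%). With DEX, 18 of 156 were lost (11.5%, against 11.6%) and none was gained (0.0761%). With only peaks of −log10 q of at least 5, 23 of 102 were lost without DEX (22.5%, against 14.5% of all regions) and 15 of 108 with DEX (13.9%, against 15.1%). The 2 comparisons share no library, and 7 regions were lost in both (38.9% of either list, against 56.5% and 51.2% over all regions). With equal numbers of peaks the calls were no longer losses alone: without DEX they were 9 losses and 2 gains of 64 regions (14.1% lost, against 7.20%), and in DEX 3 losses and 1 gain of 59 (5.08% lost, against 7.95%). TGFBR3 had 8 of the 18 losses in each comparison, and 0.817% and 0.882% of 18600 protein-coding genes had at least as many.

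The lost TGFBR3 regions lay along the gene. The region at chr1:91742737-91743317 was lost in both BRM014 comparisons. Its folds in DMSO were 15.2, 15.5, 16.9 and 13.1, and in DEX_DMSO 11.8, 16.2, 14.7 and 9.91. All 12 libraries of the GATA6 experiment also held it. The region at chr1:91851349-91851635 had the highest mean fold of the lost regions, 23.7, and was lost without DEX, while 2 of 4 DEX_BRM014 libraries held it with folds of 4.85 and 6.37. The region at chr1:91768818-91769623 was lost without DEX, and those at chr1:91795549-91796079 and chr1:91872055-91872372 with DEX. The regions that all 36 libraries held, 5 at TGFBR3, lay along the gene as well. They were the start-site region, chr1:91736243-91737529, chr1:91781303-91781832, chr1:91844870-91845477 and chr1:91864100-91864823.

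At the other receptors and the ligands the losses were fewer per gene, and so were the regions tested. These numbered 3 to 19 per gene and comparison, against 37 and 53 at TGFBR3. TGFBR1 lost an internal region at chr9:99134867-99135053 without DEX and an upstream one at chr9:99086378-99086584 with DEX. TGFBR2 lost the upstream regions at chr3:30578430-30578959 in both comparisons and chr3:30597118-30597674 with DEX. TGFB1 lost a downstream region inside CCDC97 at chr19:41321826-41321978 in both, and another there, chr19:41310621-41310756, without DEX. TGFB2 lost chr1:218426329-218426602 without DEX, and chr1:218348171-218348309 and chr1:218425735-218425965 with DEX, all inside the gene. No region of INHBA was called in any of the 9 comparisons.

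SMAD7, the inhibitory SMAD, lost a region 47558 bp upstream, chr18:48998183-48998863, and a downstream one, chr18:48901802-48902375, in both comparisons. A region 1258 bp upstream, chr18:48952157-48952290, was lost without DEX, while 3 of 4 DEX_BRM014 libraries held it. SMAD3 lost an upstream region at chr15:67049400-67049794 without DEX and an internal one at chr15:67106913-67107337 with DEX. Of the 29 regions lost in either comparison, 1 (3.45%) lay over a promoter window, against 3.34% of all lost regions. That region is the second SMAD3 start site printed above.

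In the third experiment, siRNA against both ATPases gave 9 lost regions of 133 (6.77%, against 6.73% of all regions) and none gained (0.0282%). Without siBRG1_siBRM replicate 1, the library with most peaks of its group, 14 were lost. With the 37184 best peaks of each list, 3 of 62 were lost (4.84%, against 4.43% of all regions) and 1 was gained (against 1.22% of all regions). TGFBR3 had 4 of the 9 losses, TGFBR2 and SMAD3 2 each and TGFB1 1. Those outside TGFBR3 were chr3:30578430-30578959, chr3:30597118-30597674, chr15:67049400-67049794, chr15:67098331-67098751 and chr19:41310621-41310756, each also lost in at least 1 BRM014 comparison. TGFBR3 held 24, 25, 22 and 18 regions in siCtl_only and 14, 10, 5 and 5 in siBRG1_siBRM, a difference of −13.8 (−61.8%) with no overlap. The exact permutation test gave p = 0.0286, the smallest that 4 against 4 libraries allow, and the adjusted p was 0.0956 over 46994 genes. No gene passed the adjusted threshold (0% in either direction), and 14052 had an unadjusted p under 0.05.

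Of the 8 genes, 6 reached the smallest exact permutation p, as did 29.9% of all genes tested. The 6 were TGFB1, TGFB2, TGFBR1, TGFBR2, TGFBR3 and SMAD3. Their differences were −5.75, −4.0, −3.0, −3.5, −13.8 and −5.5 regions, beside a median of −1.75 over all genes. SMAD7 differed by −3.75 (exact permutation p = 0.0571) and INHBA by −1.0 (exact permutation p = 0.257). With equal numbers of peaks the median over all genes was 0.25, and TGFB1, TGFB2 and INHBA were 1.0, 2.0 and 0.5 regions higher, none past the test. Of the 9 lost regions, 5 were also lost with BRM014 without DEX (55.6% of the 9 and 27.8% of the 18, against 58.3% and 30.8% over all regions).

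Of the 30 regions of the 8 genes lost in any ATPase comparison, 2 were lost in all 3, against 3279 of 26064 over all regions. The first was the second SMAD3 start site, chr15:67098331-67098751. Its folds were 6.18, 7.45, 5.50 and 8.38 in DMSO and 13.2, 14.2, 15.1 and 11.7 in DEX_DMSO. In the siRNA control group siCtl_only they were 5.64, 8.13, 4.52 and 3.95, and no library of BRM014, DEX_BRM014 or siBRG1_siBRM held the region. In the GATA6 experiment they were 14.8, 12.2 and 17.8 in siCtl_Veh, 22.9, 22.9 and 26.1 in siCtl_DEX, 10.7, 13.4 and 12.8 in siGATA6_Veh and 15.6, 19.4 and 21.3 in siGATA6_DEX. In each of the 3 settings the folds of the DEX libraries and of their vehicle libraries did not overlap. Each fold describes a peak against its own library's background, and the pattern was noticed after the values were seen and was not tested. When lists were held to 41026 peaks, all 4 DEX_DMSO libraries and no DMSO library held the region.

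The second was upstream of TGFBR2 at chr3:30578430-30578959, 27661 bp before the gene. Its folds were 8.06, 9.21, 5.50 and 3.83 in DMSO, 9.61, 9.54, 10.4 and 11.3 in DEX_DMSO and 8.86, 5.24, 6.02 and 7.12 in siCtl_only. All 12 libraries of the GATA6 experiment held it, with folds between 15.2 and 21.9. Under equal numbers of peaks the region was held by no DMSO, 2 DEX_DMSO and no siCtl_only libraries, and so was not called. At a −log10 q of at least 5, 3 of 4 DMSO, 4 of 4 DEX_DMSO and 3 of 4 siCtl_only libraries held it, and the SMAD3 region was held by 4, 4 and 2 of 4. At this threshold the SMAD3 region was thus lost in the 2 BRM014 comparisons and the TGFBR2 region in that with DEX alone. In DMSO and siCtl_only the peaks of both regions lay below the best 41026 and 37184 of their lists.

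**Figure D4:**
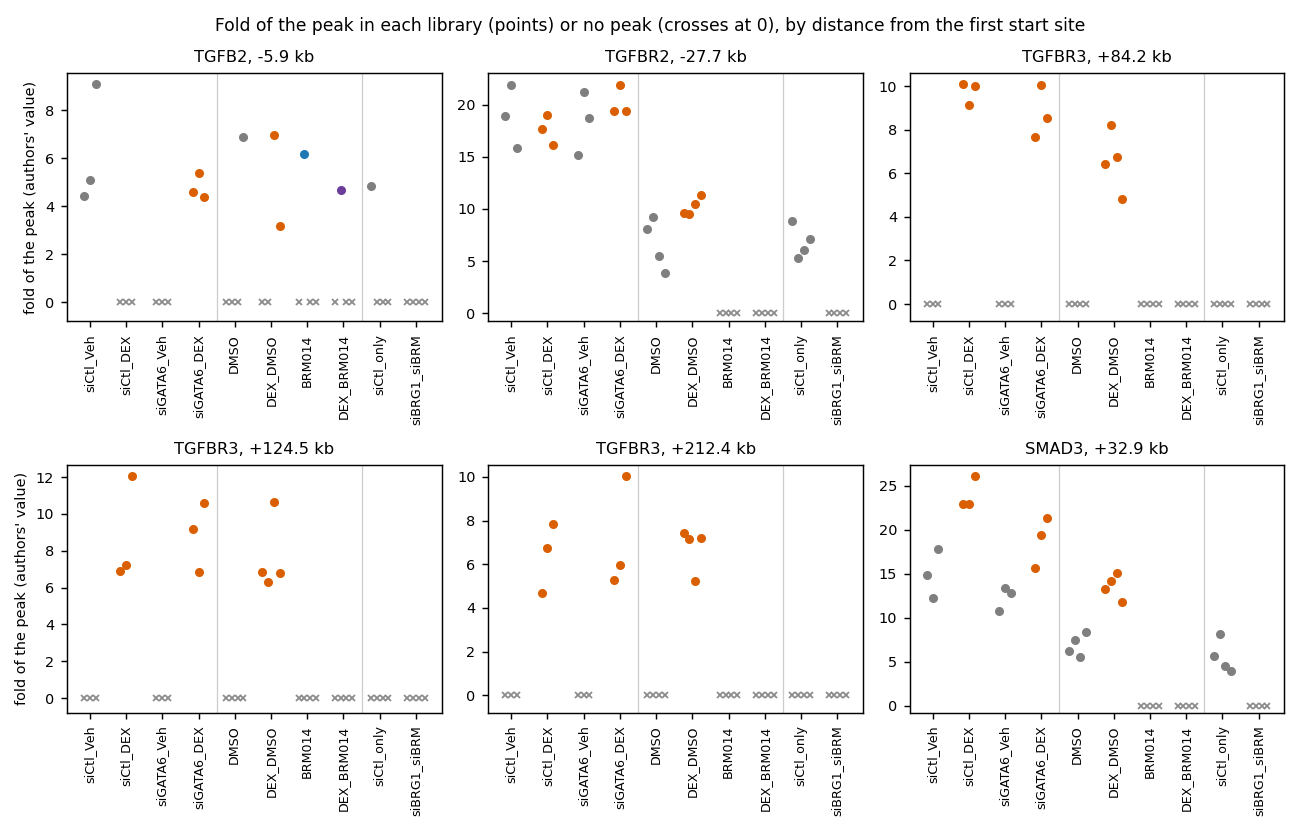
Fold of the peak (y axis, the authors' enrichment relative to each library's own background) at 6 regions, in every library of the 10 groups (x axis). Points are peaks and crosses at 0 are libraries without one; the 3 TGFBR3 regions have peaks only with DEX and without BRM014, and the SMAD3 region has folds of 11.7 to 15.1 in DEX_DMSO, 5.50 to 8.38 in DMSO and no peak with BRM014.

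The last question was whether DEX still changed these genes when the ATPases were inhibited. After 4 h of DEX without BRM014, 3 regions of 172 were gained (1.74%, against 1.56% of all regions) and 1 was lost (0.581%, against 0.434%). With DMSO replicate 1 left out, 8 were called in place of 4. The 3 gained regions were the same TGFBR3 regions named above for 2 h of DEX, in cells and libraries that the first experiment does not share. At a −log10 q of at least 5, all 4 DEX_DMSO libraries held the second of them and 3 of 4 held each of the others. Of 18600 protein-coding genes, 137 (0.737%) gained at least as many as TGFBR3, where 56 regions were tested. The lost region was that of TGFB1 at chr19:41310621-41310756, held by 4 of 4 DMSO and no DEX_DMSO libraries.

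Under BRM014, DEX gained 0 and lost 0 of 93 regions (0.323% and 0.155% of all regions were gained and lost). The count was 1 without BRM014 replicate 1 or 4, or without DEX_BRM014 replicate 2 or 4. None of the 4 DEX_BRM014 libraries held any of the 3 TGFBR3 regions. In DEX_DMSO the folds were 6.42, 8.20, 6.73 and 4.84 at 84.2 kb, 6.85, 6.31, 10.6 and 6.80 at 124.5 kb and 7.44, 7.16, 5.25 and 7.18 at 212.4 kb. That they were also lost with BRM014 in DEX rests on the same DEX_DMSO libraries. Over all regions, 1958 of 2460 (79.6%) gained with DEX in DMSO were held by no DEX_BRM014 library. These TGFBR3 peaks ranked low enough to drop out of shortened lists: with the 41026 best peaks, 0, 1 and 0 of the DEX_DMSO libraries held them. The part of the shorter DEX_BRM014 lists in their absence was not tested.

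By gene, TGFBR3 held 3.88 more regions with DEX (21.3 ± 10.4 against 17.4 ± 8.47, SD, n = 8 each; exact permutation p = 0.00531, adjusted p = 0.391). With equal numbers of peaks this difference was 0.0. The difference with DEX was 3.25 regions smaller under BRM014 than in DMSO, which did not pass the permutation test (p = 0.0952, adjusted p = 0.692). The interaction called 221 of 48100 genes (0.459%) and none of the 8. For DEX alone no gene passed (0% in either direction) and 3838 had an unadjusted p under 0.05, with TGFBR3 the only one of the 8. The other 7 differed by −2.38 to 1.0 regions with DEX.

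**Figure D5:**
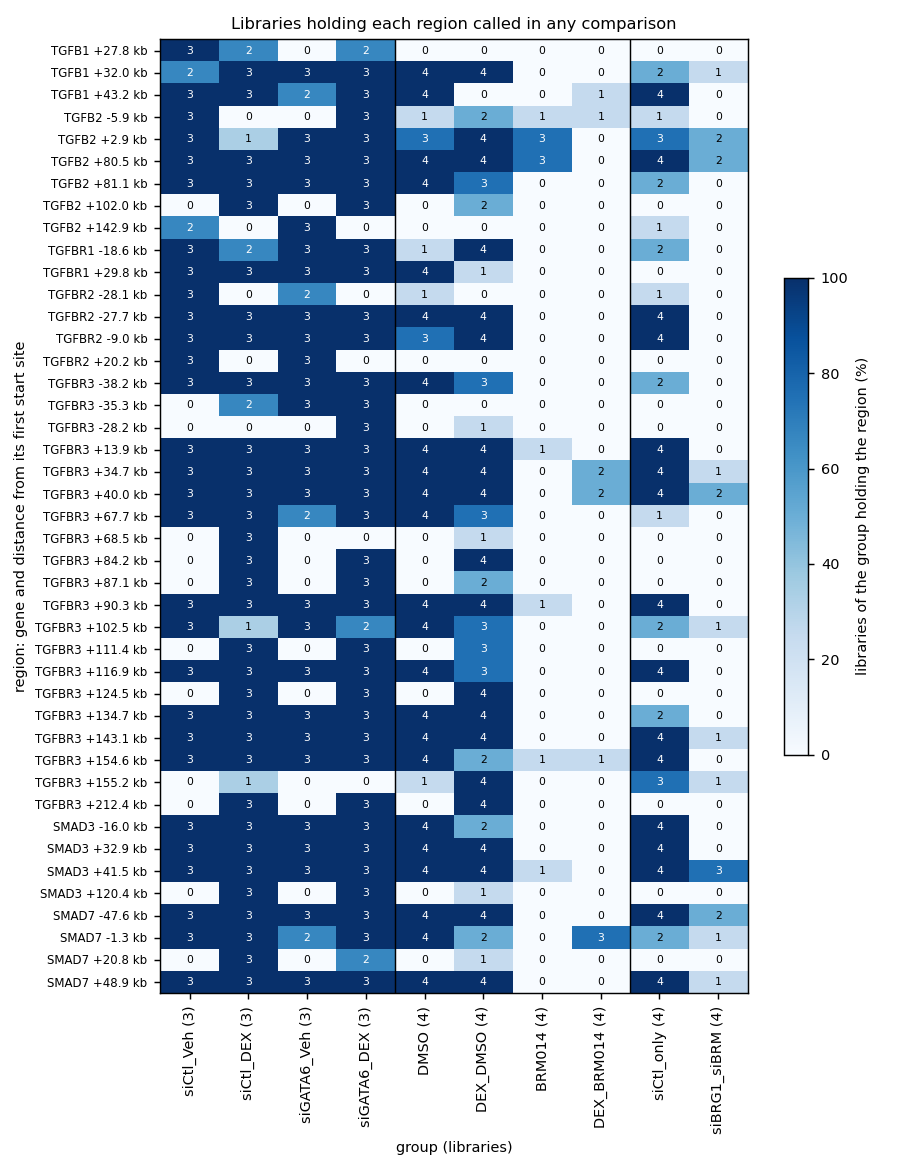
Number of libraries holding each region of the 8 genes that was called in any comparison (rows, labelled by gene and distance from its first start site in kb) in each group (columns, with the number of libraries), coloured by the share of libraries in percent. Rows were chosen by their calls, and 30 of them were lost in a BRM014 or siBRG1_siBRM comparison. Many of the zeros in the BRM014, DEX_BRM014 and siBRG1_siBRM columns thus follow from the choice of rows. The rows TGFBR3 +84.2, +124.5 and +212.4 kb, called as gained with DEX, are filled in the siCtl_DEX, siGATA6_DEX and DEX_DMSO columns alone.

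A list of 45 other genes of the pathway was described in the same way, chosen for their roles. With BRM014, 36 of the 44 that could be tested fell and none rose, beside 67.8% of all genes. By role these were 6 of 8 ligands, 7 of 8 receptors, 5 of 6 SMADs, 10 of 14 regulators and 8 of 8 targets. No values with equal numbers of peaks are given for these genes. In that setting 5231 of all genes were lower with BRM014 and 6203 higher. LTBP1, which stores latent TGF-beta in the matrix, fell from 27.8 to 8.25 regions, BMP7, a ligand of the related BMP branch, from 11.3 to 2.75, and the BMP and activin receptor ACVR1 from 11 to 3 (exact permutation, adjusted p = 0.00148 each). Neither SMAD4, the shared partner of SMAD3 (3.88 and 2.75 regions; exact permutation, adjusted p = 0.0536), nor the ligand TGFB3 (3.5 and 3.5 regions) passed.

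Regions lost with BRM014 without DEX lay at 31 of the 45 genes (68.9%, against 53.9% of protein-coding genes), with DEX at 31 (57.5%) and with siBRG1_siBRM at 24 (36.9%). LTBP1 lost most, 11, 7 and 5 in that order. Regions gained with DEX lay at 11 genes in siCtl cells (22.9% of protein-coding genes), 11 in siGATA6 cells (23.7%) and 8 in DMSO cells (14.9%). LTBP2, another latent TGF-beta binding protein, gained 2 in each siRNA setting, and LTBP1 gained 3 in siGATA6 cells. Under BRM014 none of the 45 gained a region with DEX (2.35%).

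The gene patterns most like each of the 8 across the 36 libraries were sought among 16095 genes by the correlation of regions held, keeping genes on other chromosomes. The libraries share the large steps in peak number between experiments, so that the median correlation with all genes was already 0.727 to 0.835, and values are given as a description. For TGFBR3 the closest were KCNMA1 (r = 0.979) and ZFHX3 (0.978), and for SMAD3 ATP1B3 (0.957) and PRDM15 (0.953). TGFBR2 was closest to TERF2 (0.962) and GRXCR2 (0.957), and TGFBR1 to ZBTB2 (0.942) and SRGAP2 (0.939). TGFB1 was closest to PEDS1-UBE2V1 (0.945) and PRRC2B (0.940), and TGFB2 to ANKRD23 (0.930) and SNTB1 (0.926). For SMAD7 the closest was TGFBR3 itself (0.954), followed by KCNK3 (0.954). INHBA had the loosest match, with FAM110B (0.906) and FAM180B (0.906).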

How the data were processed

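ATAC-seq peak lists of 36 BT549 libraries were used, 1 list per library, so peaks were called per sample. The build was GRCh38 (hg38) and the tools MACS2, HOMER, SAMtools and bcl2fastq, per the submitters' processing notes. Not given in the sources used here: aligner, read shifting, duplicate handling, peak settings. For each peak the authors deposited a fold enrichment over the library's own background (a ratio), a −log10 p and a −log10 q, the lowest −log10 q being 1.3. No read counts were used, so no count test was run.

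Peaks overlapping by at least 1 bp were merged over the 36 libraries and assigned to genes of the RefSeq table (GRCh38.p14). In 9 comparisons a region was called gained if all treated and no control libraries held it, and lost if the reverse was true. Regions held per gene (mean of at least 1) were compared by two-sided exact permutation within the levels of the other factor, and interactions by 20000 permutations of residuals, with Benjamini-Hochberg adjustment over all genes tested and a threshold of 0.05. The titles number the libraries of a group as biological replicates, and p-values measure the spread between these libraries. The members, the lists and the regions named (per gene and comparison all called regions, or the 3 with the highest mean fold, and the most shared region) were chosen with earlier results of these data known. Alternatives were a −log10 q of at least 5, equal numbers of best peaks per experiment, merging within an experiment, an overlap of 50 bp, no filter on genes, each library left out and a replicate block. The tests were checked on simulated data with losses set at chosen genes. There each region was drawn independently in each library, so variation shared by the regions of a library was not covered. Python 3.11.15, numpy 2.4.6, pandas 2.3.3 and scipy 1.17.1 were used.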

Additional observations from a re-analysis of the deposited data

Results flagged for a closer look

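In 8 of the 45 groups of 4 libraries whose counts varied, the highest or lowest library stood apart from the other 3 by Dixon's 95% criterion, which chance meets in about 1 group in 20. Counts this small take few values, so equal counts in the other 3 libraries were enough. DEX_DMSO replicate 3 held 16 TGFB2 regions (the others 12) and 3 INHBA regions (the others 2), and DEX_DMSO replicate 1 held 8 TGFBR2 regions (the others 9). DMSO replicate 1 held 26 TGFBR3 regions (the others 25). DEX_BRM014 replicate 1 held 10 SMAD7 regions (the others 6) and DEX_BRM014 replicate 3 held 1 INHBA region (the others 2). BRM014 replicate 4, the shortest list of its experiment, held 1 INHBA region (the others 2), and siBRG1_siBRM replicate 1 held 3 (the others 2).

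The TGFB2 region at chr1:218339393-218339526 moved with DEX in opposite directions in the 2 siRNA settings. It was held by 3 siCtl_Veh, 0 siCtl_DEX, 0 siGATA6_Veh and 3 siGATA6_DEX libraries. The difference was not tested for the region itself.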

How the results depend on the processing

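The labels share replicate numbers, and the main tests did not pair libraries by them. Deviations of same-numbered libraries correlated at 0.0114 to 0.101 in the GATA6 experiment, against −0.0642 to 0.0239 for its other pairs. The ranges were −0.0228 to 0.0737 with BRM014 (other pairs −0.0611 to 0.0498) and −0.0341 to 0.0297 with siBRG1_siBRM (other pairs −0.0376 to 0.0411). In that order, 11 of 12, 8 of 16 and 3 of 8 libraries correlated best with their own number. Same-numbered libraries of the GATA6 experiment thus shared some weak variation, and its source was not tested. With the replicate block 7 of the 8 genes passed for BRM014 in place of 8, INHBA having an adjusted p of 0.160 by exact permutation, and no other call changed.

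At a −log10 q of at least 5 the member regions called were 7 for DEX in siCtl, 7 for DEX in siGATA6, 0 for siGATA6 in DEX and 1 for DEX in BRM014. With equal numbers of best peaks they were 1 for siGATA6 in DEX, 11 and 4 for BRM014 without and with DEX and 4 for siBRG1_siBRM. In that setting TGFB1, TGFB2 and INHBA turned from lower to higher by 1.88, 1.38 and 0.25 regions with BRM014 and by 1.0, 2.0 and 0.5 with siBRG1_siBRM, and the DEX difference of TGFBR3 at 4 h was 0.0. The cause was not tested. With 1 library left out the calls ranged from 13 to 18 for DEX in siCtl, 11 to 20 for DEX in siGATA6, 3 to 6 for siGATA6 in vehicle and in DEX, 4 to 8 for DEX in DMSO, 0 to 1 for DEX in BRM014, 18 to 25 and 18 to 23 for BRM014 without and with DEX and 9 to 14 for siBRG1_siBRM. Fewer libraries then have to share a region. Of 310 recomputed gene differences, 11 did not keep their direction and side of the threshold. The 22 small differences given only as ranges were recomputed 402 times; 45 did not keep their sign and none passed the threshold. Without the filter on genes, 7 of the 8 passed for BRM014. Depth per library is unknown and limits every absence of a peak.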
